A study of Mus musculus with 3 samples.

Results

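Cytochrome P450 genes were described in 3 RNA-seq libraries of mouse epididymis, made from its initial segment and caput, where the duct begins and sperm from the testis start to mature. Genes were taken by symbol: those that begin with Cyp, a number and a letter, without the Cyp26 genes of retinoic acid breakdown and without Cyp51. The rule took 101 of the 24346 genes in the table, and no measured value entered it. RefSeq annotates 95 of them as protein-coding, 5 as transcribed pseudogenes and 1, Cyp4x1os, as a long non-coding RNA antisense to Cyp4x1. All 3 libraries carried the genotype label Ovch2-/- and came from untreated mice aged 14 weeks. Ovch2 encodes ovochymase 2, a protease of the initial segment that is released into the duct. The labels gave no other group, so no value here is a difference from tissue with intact Ovch2, and no test between groups was possible. Whether each library stands for its own animal is not said in the labels, and the spread between libraries may be technical.

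P450 enzymes hold a haem group with which they insert an oxygen atom into a substrate. Most sit in the endoplasmic reticulum and draw electrons from P450 reductase, with cytochrome b5 as a helper in some reactions, while a few sit in mitochondria and are fed by ferredoxin and its reductase. Many members of the CYP1, CYP2 and CYP3 families clear drugs and foreign compounds, chiefly in liver. CYP4 and CYP2J enzymes oxidise fatty acids and eicosanoids, and most of the remaining families act on steroids, sterols, bile acids or vitamin D. Several subfamilies lie as tandem gene clusters, in which close copies sit side by side.

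The libraries differed before any P450 gene was considered. Levels are in FPKM, a fragment count divided by transcript length and library size. Replicates 1, 2 and 3 had 4.50, 80.2 and 77.2 FPKM of Ovch2 itself. The sources used here do not give the deleted exons, so this RNA checks no genotype label. A list of 17 genes of the initial segment summed to 5864, 58096 and 61110 FPKM. A caput list of 12 genes summed to 68856, 103154 and 104953 FPKM in the same order, so both sums were lower in replicate 1. The lists, which share Lcn8 and Lcn9, were not uniform. In replicate 1, 12 of the 17 initial segment genes and 6 of the 12 caput genes were at least 2-fold below both other libraries, and Lcn9 was listed at 0, while Rnase9, Rnase13, Ggt1 and the caput gene Lcn5 were highest there. Sums of 9 spermatid and sperm genes were 2.67, 183 and 254 FPKM. Because replicate 1 stands apart, values are given by library and, for the leading genes, also without it. Absolute depth is unknown, since the table holds no counts. From ratios of low values, replicate 1 was sequenced 1.22 times as deeply as replicate 2 and 1.39 times as deeply as replicate 3.

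Most P450 genes were listed at 0 or averaged below 1 FPKM. Of the 101 genes, 19 had a mean of at least 1 FPKM, which is 18.8%, against a background of 53.7% of all genes. In all 3 libraries 52 were listed at 0, or 51.5%, against 23.0% of all genes. The other 30 lay above 0 in a library with a mean below 1 FPKM. A 0 in this table can also be a failed estimate, so these genes are called listed at 0. The P450 genes together summed to 195, 132 and 135 FPKM in replicates 1, 2 and 3. That was 0.0268%, 0.0178% and 0.0166% of the library totals. Replicate 1 had the highest sum on both scales. No P450 gene was among the abundant genes of the tissue, and the highest ranked 3614th by mean over the table. Among genes that reached a mean of 1 FPKM, the median level was 4.24 FPKM for the 19 P450 genes and 10.7 FPKM for all genes.

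**Figure D1:**
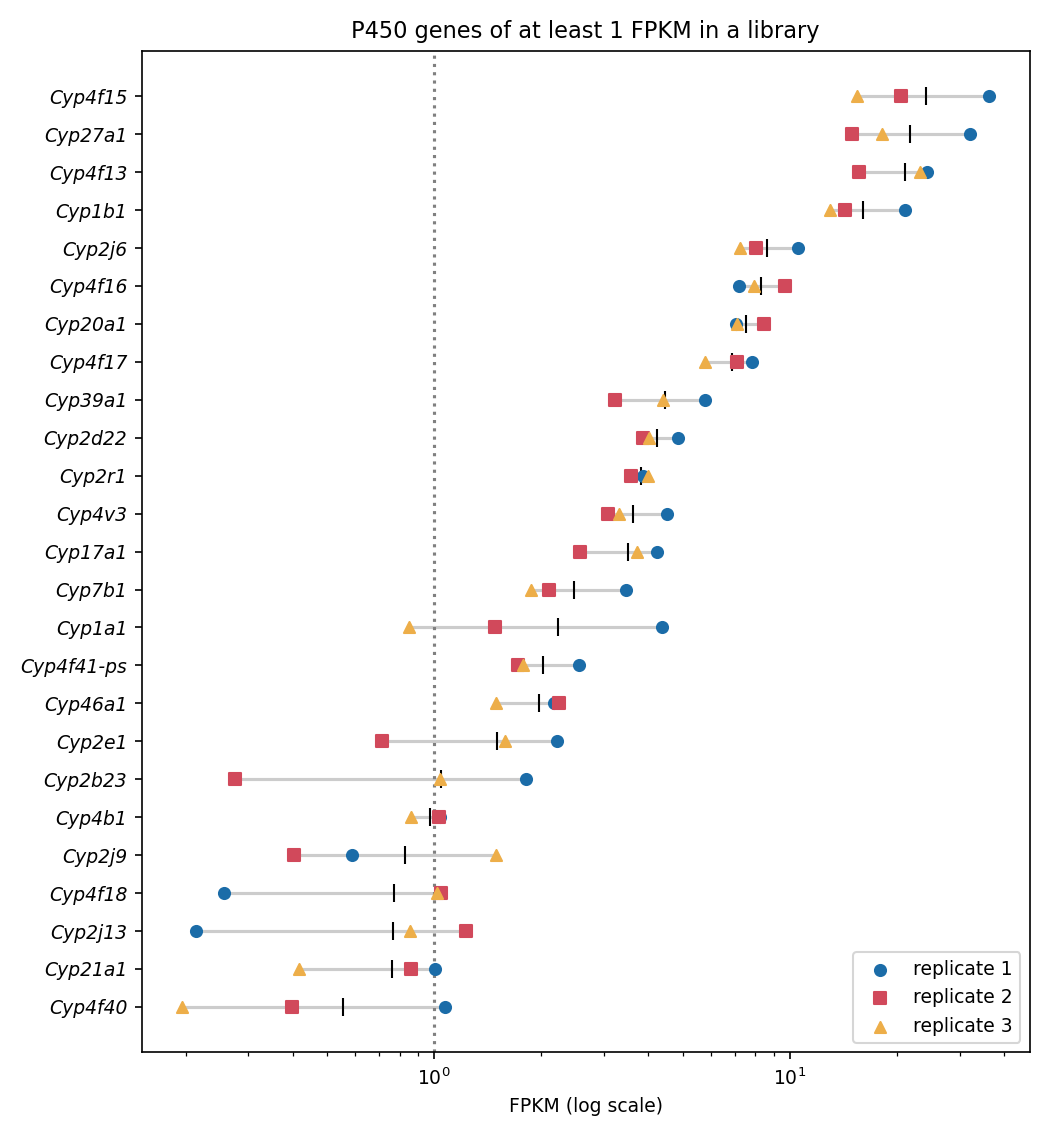
FPKM on a log axis of the 25 P450 genes that reached 1 FPKM in at least 1 library, ordered by mean. Points are libraries, the black tick is the mean over 3 libraries, the grey line spans the libraries and the dotted line marks 1 FPKM; Cyp4f15 heads the order, and replicate 1 is the rightmost point for most genes above the dotted line.

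The role groups differed in how many of their genes were read. Of 54 xenobiotic-type CYP1, CYP2 and CYP3 genes, 5 had a mean of at least 1 FPKM and 37 were listed at 0 throughout. Of 30 fatty acid and eicosanoid genes, 7 had such a mean, and this group gave 51.8% of the P450 sum on average over the libraries. Of 6 genes of bile acid, oxysterol and cholesterol turnover, 4 had such a mean, and they gave 19.5% of the sum. The steroid hormone group had 1 of 6 and the vitamin D group 1 of 3. These groups were set by symbol and hold unequal numbers of genes, so the shares describe composition and rank no pathway.

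**Figure D2:**
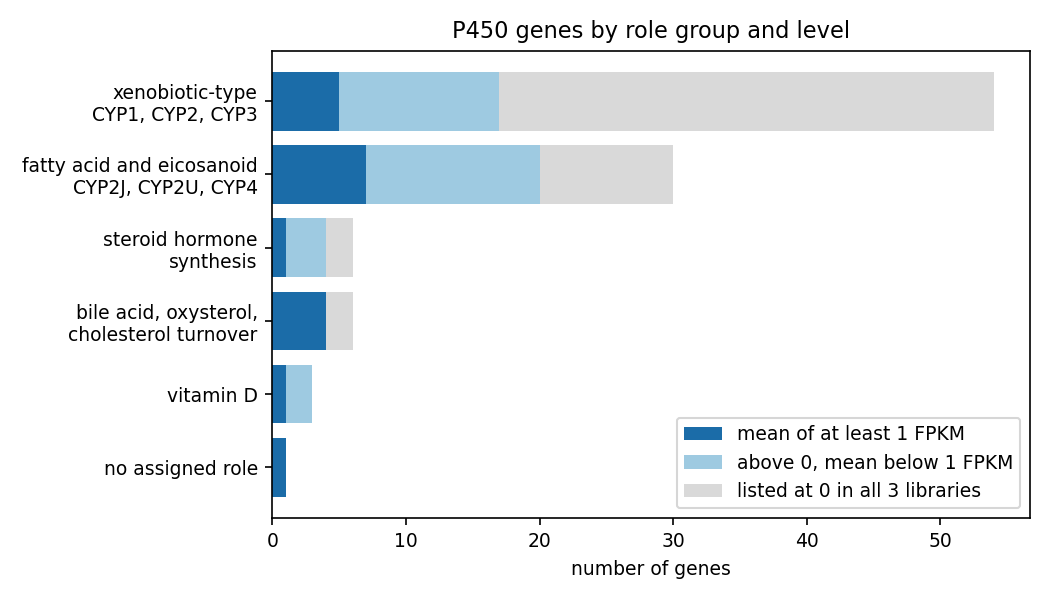
Number of P450 genes in each role group, split by level: mean of at least 1 FPKM, above 0 with a mean below 1 FPKM, and listed at 0 in all 3 libraries. The xenobiotic-type group is the longest bar and mostly pale, with 5 of 54 genes at or above 1 FPKM; the antisense RNA is not drawn.

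Upstream sequence is shown for 4 of these genes. Cyp1a1 and Cyp1b1 are the textbook targets of the aryl hydrocarbon receptor, a ligand-activated factor that binds xenobiotic response elements, and Cyp4f15 and Cyp27a1 had the highest means over the 3 libraries. All 4 had their highest value in replicate 1, as given with their levels below. Each line gives the 250 bases before 1 annotated transcript start site of the gene, 5′ to 3′ on the gene's strand, from RefSeq in build GRCm38.p6. For Cyp1b1 that site is the 5′ end of the annotated gene, while for Cyp4f15, Cyp27a1 and Cyp1a1 it lies 28, 387 and 9685 bases downstream of it, inside the gene as annotated. Capitals mark every match, on either strand, to 4 motifs: the xenobiotic response element core (GCGTG or CACGC), a nuclear receptor half-site (AGGTCA or TGACCT), an androgen receptor half-site (AGAACA or TGTTCT) and a TATA box (TATAAA or TTTATA).
Cyp1a1 (chr9:57697363-57697612, plus strand): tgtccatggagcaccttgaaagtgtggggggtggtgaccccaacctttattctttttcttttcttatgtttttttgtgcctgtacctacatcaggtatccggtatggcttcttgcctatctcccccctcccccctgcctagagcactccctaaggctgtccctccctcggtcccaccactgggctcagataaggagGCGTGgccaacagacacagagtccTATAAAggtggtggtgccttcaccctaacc
Cyp1b1 (chr17:79715062-79715311, minus strand): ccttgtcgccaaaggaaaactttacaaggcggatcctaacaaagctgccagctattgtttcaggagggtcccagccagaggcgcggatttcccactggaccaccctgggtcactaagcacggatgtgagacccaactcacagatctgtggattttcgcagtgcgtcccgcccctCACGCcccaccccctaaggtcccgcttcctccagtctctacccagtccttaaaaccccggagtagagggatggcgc
Cyp4f15 (chr17:32685409-32685658, plus strand): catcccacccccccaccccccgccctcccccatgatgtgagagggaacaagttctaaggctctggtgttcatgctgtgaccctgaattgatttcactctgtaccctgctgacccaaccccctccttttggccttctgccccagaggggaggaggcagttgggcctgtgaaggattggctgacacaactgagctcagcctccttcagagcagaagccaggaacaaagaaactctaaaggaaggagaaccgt
Cyp27a1 (chr1:74713285-74713534, plus strand): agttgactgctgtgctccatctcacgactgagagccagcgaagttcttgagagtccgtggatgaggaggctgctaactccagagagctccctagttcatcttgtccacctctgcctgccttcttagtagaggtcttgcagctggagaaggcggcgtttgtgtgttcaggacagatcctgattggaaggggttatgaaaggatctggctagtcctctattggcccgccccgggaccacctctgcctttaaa

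The Cyp1a1 window held 1 xenobiotic response element core, starting 54 bases before the start site, and 1 TATA box starting 30 bases before it. The Cyp1b1 window held 1 such core, on the opposite strand, starting 76 bases before the start site. The windows of Cyp4f15 and Cyp27a1 held none of the 4 motifs. No marked match overlapped another. The core is short and common: 28.1% of the 32817 promoter windows of equal length in the table held it, as did 16 of 84 windows of P450 genes and 6 of the 13 windows of those that averaged at least 1 FPKM. A TATA box stood in 29 of these 84 P450 windows, in 2 of the same 13 windows and in 12.4% of all windows. The promoter table covered 74 of the 101 P450 genes and 13 of the 19 that averaged at least 1 FPKM. A match is a description of the letters and not a measured site.

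The 10 Cyp4f genes gave 41.7% of the P450 sum on average over the libraries, more than any other subfamily. Cyp4f enzymes hydroxylate the tail end of fatty acids and leukotrienes, and leukotriene B4 is among the substrates of this subfamily. Cyp4f15 stood at 36.4, 20.5 and 15.4 FPKM in replicates 1, 2 and 3, a mean of 24.1 ± 10.9 FPKM (SD, n = 3). Without replicate 1 the mean was 17.96 FPKM. Cyp4f13, of the same subfamily, stood at 24.3, 15.7 and 23.2 FPKM in replicates 1, 2 and 3, a mean of 21.1 ± 4.71 FPKM (SD, n = 3). Its mean without replicate 1 was 19.4 FPKM, which is above that of Cyp4f15. The libraries do not order the pair: Cyp4f15 was higher in replicates 1 and 2 and Cyp4f13 in replicate 3. Cyp4f16 stood at 7.20, 9.70 and 7.92 FPKM and Cyp4f17 at 7.83, 7.08 and 5.77 FPKM. Both were well below Cyp4f15 and Cyp4f13 in each library. The pseudogene Cyp4f41-ps stood at 2.55, 1.73 and 1.78 FPKM.

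These genes lie in 1 tandem cluster of 9 on mm10 chromosome 17, from 32452697 to 32965716. Of the 9 genes, 5 had a mean of at least 1 FPKM and none was listed at 0 in all libraries. Levels did not follow position. Cyp4f15 (32685631 to 32703352, plus strand) stands between Cyp4f40 and Cyp4f14, which averaged 0.556 and 0.0233 FPKM. Cyp4f40 stood at 1.07, 0.398 and 0.195 FPKM in replicates 1, 2 and 3, and so reached 1 FPKM in replicate 1 alone. Cyp4f13 (32924688 to 32947415, minus strand) stands between Cyp4f14 and Cyp4f41-ps. Cyp4f39, at the cluster's start, averaged 0.481 FPKM, and Cyp4f37 averaged 0.0194 FPKM. Cyp4f18, which lies apart on chromosome 8, stood at 0.257, 1.04 and 1.02 FPKM, lowest in replicate 1. It shares 181 exon bases with Zfp961 on the opposite strand (7.22, 7.10 and 7.73 FPKM). The strand setting used for quantification is not given, so its reads and those of Zfp961 cannot be told apart there.

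**Figure D3:**
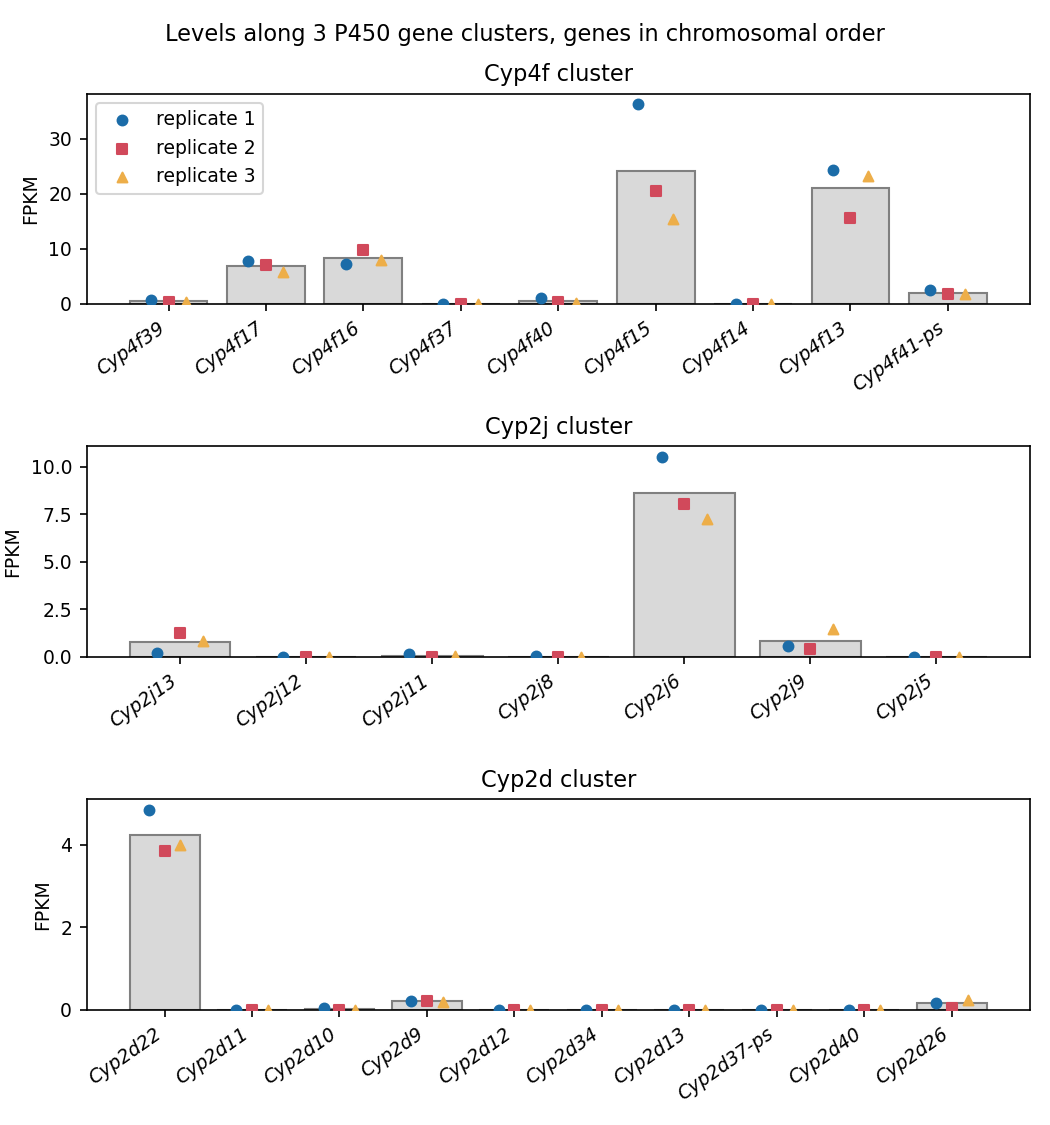
FPKM of the genes of 3 P450 clusters in chromosomal order; bars are means over 3 libraries and points are libraries. The Cyp4f cluster has several genes well above 0, while the Cyp2j and Cyp2d clusters each have 1, Cyp2j6 and Cyp2d22.

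Shared sequence sets how far neighbours can be separated. In the longest GENCODE transcript of Cyp4f15, 2.45% of windows of 50 bases also occurred exactly in a transcript of another gene, and in that of Cyp4f13, 2.70%. For Cyp4f16 the share was 26.5%, of which nearly all lay in Cyp4f37 (24.8%), so the split of reads between Cyp4f16 and Cyp4f37 is uncertain. Cyp21a1 shared 23.7% of windows with the pseudogene Cyp21a2-ps, and Cyp4b1 shared 10.3%, including 5.26% with the pseudogene Cyp4b1-ps2. Cyp4v3 shared 7.02% with the overlapping gene model Gm45753. The other genes that reached 1 FPKM in a library shared less than 5%.

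Among the other fatty acid genes, only Cyp2j6 and Cyp4v3 averaged at least 1 FPKM. Cyp2j enzymes epoxidise arachidonic acid, and Cyp4v3 is the mouse counterpart of human CYP4V2, a fatty acid hydroxylase mutated in a crystalline corneal and retinal dystrophy. Cyp2j6 stood at 10.5, 8.03 and 7.25 FPKM in replicates 1, 2 and 3, a mean of 8.61 ± 1.72 FPKM (SD, n = 3). It was the 1 gene of 7 in the Cyp2j cluster with a mean of at least 1 FPKM. Its neighbour Cyp2j9 (0.589, 0.404 and 1.49 FPKM) and, at the far end of the cluster, Cyp2j13 (0.214, 1.23 and 0.854 FPKM) reached 1 FPKM in 1 library each, and not in the same one. Cyp4v3 stood at 4.50, 3.09 and 3.30 FPKM. Cyp4b1, a fatty acid hydroxylase best known in lung, stood just under the threshold at 1.04, 1.03 and 0.858 FPKM, a mean of 0.975 FPKM. None of the 8 Cyp4a genes, the kidney and liver fatty acid hydroxylases, averaged above 0.0671 FPKM, and 6 were listed at 0 throughout.

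Sterol-metabolising P450 genes summed to 43.5, 22.5 and 25.9 FPKM in replicates 1, 2 and 3, against 37.4, 22.8 and 22.8 FPKM for the xenobiotic-type genes, so the order of these groups turned in replicate 2. Cyp27a1 encodes the mitochondrial sterol side-chain hydroxylase, which makes oxysterols and acts in bile acid synthesis. It stood at 32.0, 14.9 and 18.1 FPKM in replicates 1, 2 and 3, a mean of 21.7 ± 9.11 FPKM (SD, n = 3) and of 16.5 FPKM without replicate 1. Its level overlapped those of Cyp4f15 and Cyp4f13, so the order of these 3 genes is not fixed by the libraries. Cyp27a1 lies on chromosome 1 from 74713148 to 74737897, plus strand. Cyp39a1 and Cyp7b1 encode oxysterol hydroxylases. Cyp39a1 stood at 5.79, 3.22 and 4.39 FPKM and Cyp7b1 at 3.46, 2.11 and 1.87 FPKM in replicates 1, 2 and 3, both highest in replicate 1. Cyp46a1, the cholesterol hydroxylase best known in neurons, stood at 2.17, 2.24 and 1.49 FPKM. The liver enzymes of bile acid synthesis Cyp7a1, its rate-limiting hydroxylase, and Cyp8b1 were listed at 0 in all libraries. Nr1h2 and Nr1h3, which encode the oxysterol receptors LXR beta and LXR alpha, stood at 67.0, 54.7 and 64.3 FPKM and at 6.29, 3.57 and 3.52 FPKM.

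Steroid and vitamin D genes were low. Cyp17a1, the hydroxylase and lyase of androgen synthesis, stood at 4.22, 2.58 and 3.71 FPKM in replicates 1, 2 and 3, a mean of 3.50 ± 0.844 FPKM (SD, n = 3). Cyp11a1, which makes pregnenolone from cholesterol in mitochondria, stood at 0.326, 0.796 and 0.854 FPKM, and Cyp21a1, the adrenal progesterone hydroxylase, at 1.01, 0.863 and 0.416 FPKM. Cyp11b1 and Cyp11b2 were listed at 0, and Cyp19a1, the aromatase gene, reached at most 0.165 FPKM. The testicular Leydig cell list gave a sum of 2.21, 3.21 and 2.25 FPKM over 6 genes. Star made up most of it (2.18, 1.92 and 2.15 FPKM), and Hsd3b1 and Hsd17b3 were listed at 0. Insl3, of the same list, was read in replicate 2 alone, at 1.08 FPKM. Lhcgr averaged 0.0881 FPKM and Hsd3b6 0.0187 FPKM. Cyp2r1, a microsomal enzyme that begins the activation of vitamin D, stood at 3.85, 3.56 and 3.997 FPKM. Its coefficient of variation of 5.80% was the lowest of the 19 genes that averaged at least 1 FPKM. Cyp27b1, which completes that activation, averaged 0.118 FPKM, and Cyp24a1, which breaks the hormone down, 0.00688 FPKM. Cyp20a1, whose substrate is not known, stood at 7.07, 8.44 and 7.11 FPKM.

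In the xenobiotic-type group Cyp1b1 led. Cyp1b1 hydroxylates polycyclic aromatic hydrocarbons and oestradiol and is expressed in many tissues outside the liver. It stood at 21.0, 14.3 and 12.9 FPKM in replicates 1, 2 and 3, a mean of 16.1 ± 4.31 FPKM (SD, n = 3) and of 13.6 FPKM without replicate 1. Cyp1a1, which acts on similar hydrocarbons, stood at 4.36, 1.48 and 0.849 FPKM, a mean of 2.23 ± 1.87 FPKM (SD, n = 3) and of 1.17 FPKM without replicate 1. Replicate 1 was highest for both genes, by 5.14 times over the lowest library for Cyp1a1 and by 1.62 times for Cyp1b1. Cyp1a2, the liver member that lies beside Cyp1a1, was listed at 0 in all libraries. Ahr, the receptor gene, stood at 2.08, 2.07 and 2.29 FPKM, and Arnt, its partner, at 11.0, 12.5 and 11.4 FPKM. Neither was highest in replicate 1. Ahrr, which encodes a repressor of the receptor and is itself one of its targets, averaged 0.0151 FPKM. The part of the receptor in the Cyp1a1 and Cyp1b1 values was not tested.

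The CYP2 and CYP3 genes of drug clearance were mostly listed at 0. In the Cyp2c subfamily 14 of 16 genes, in Cyp3a 8 of 9 and in Cyp2d 6 of 10 were listed at 0 in all libraries. Cyp2d22 stood at 4.86, 3.86 and 4.004 FPKM, and no other Cyp2d gene averaged above 0.208 FPKM. Cyp2e1, which oxidises ethanol and small solvents, stood at 2.22, 0.714 and 1.58 FPKM. Cyp2b23 stood at 1.81, 0.276 and 1.04 FPKM. Both were highest in replicate 1 and lowest in replicate 2. The mean of Cyp2b23 was 1.04 FPKM, the lowest above the threshold, and 0.657 FPKM without replicate 1. Cyp2s1 lay just below, at 0.925, 0.999 and 0.997 FPKM. Nr1i2 and Nr1i3, which encode the drug-sensing receptors PXR and CAR, were also listed at 0. Of 8 hepatocyte genes, Alb averaged 0.0257 FPKM, Fgb and Serpina3k were listed at 0, and Fga alone passed 1 FPKM (4.22, 20.0 and 9.997 FPKM), lowest in replicate 1.

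Across libraries, P450 genes were most often highest in replicate 1. Of the 19 genes that averaged at least 1 FPKM, 15 had their highest value there, or 78.9%, against a background of 38.2% of all 13073 genes with such a mean. Cyp20a1, Cyp46a1 and Cyp4f16 were highest in replicate 2 (background 34.4%) and Cyp2r1 in replicate 3 (background 27.3%), though with equal library totals no P450 gene was highest in replicate 3. Of the same 19 genes, Cyp4f16 and Cyp20a1 were the 2 lowest in replicate 1, where 41.2% of all genes with such a mean were lowest. Cyp2b23 had a mean of at least 1 FPKM only through replicate 1. Conversely, Cyp4f18 and Cyp2j13 fell below that minimum only through replicate 1, averaging 1.03 and 1.04 FPKM without it. Without replicate 1, replicate 2 was higher than replicate 3 for 9 of the 19 genes, against 50.5% of all genes. The counts describe 3 libraries of 1 group, and no test was made.

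The size of this difference was modest. On the log2(FPKM + 1) scale, which understates differences of low genes, replicate 1 minus the mean of the other libraries had a median of 0.39 over the 19 P450 genes and of -0.01 over all genes past the same threshold. For replicate 2 the medians were -0.20 and 0.01, and for replicate 3 -0.14 and 0.02, P450 genes first. Replicate 1 is among the others in both. Without it, replicate 2 minus replicate 3 had a median of -0.03 over the same 19 genes and of 0.068 over the 20 genes that then averaged at least 1 FPKM. The differences of replicate 1 from the others ran as high as 1.32 for Cyp1a1, 0.99 for Cyp4f15 and 0.92 for Cyp27a1, and as low as -0.25 for Cyp4f16. Cyp1a1 was the 1 gene at least 2-fold above both other libraries in replicate 1, against a background of 1.29%, and no P450 gene was at least 2-fold below both others there, against a background of 4.07%. In replicates 2 and 3 no P450 gene lay that far above or below both others (backgrounds 0.237% and 0.757% in replicate 2, 0.314% and 0.153% in replicate 3). With 19 genes, the backgrounds correspond to less than 1 gene each. Set against replicate 3 alone, 2 of 20 P450 genes in replicate 1 were 2-fold above it, Cyp1a1 and Cyp4f15, against 287 of all 13043 genes that averaged at least 1 FPKM in these libraries. Set against replicate 2 alone, 3 of 20 were, Cyp1a1, Cyp27a1 and Cyp2b23, against 464 of all 13029 genes, and Cyp2b23 passed the minimum only through replicate 1.

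**Figure D4:**
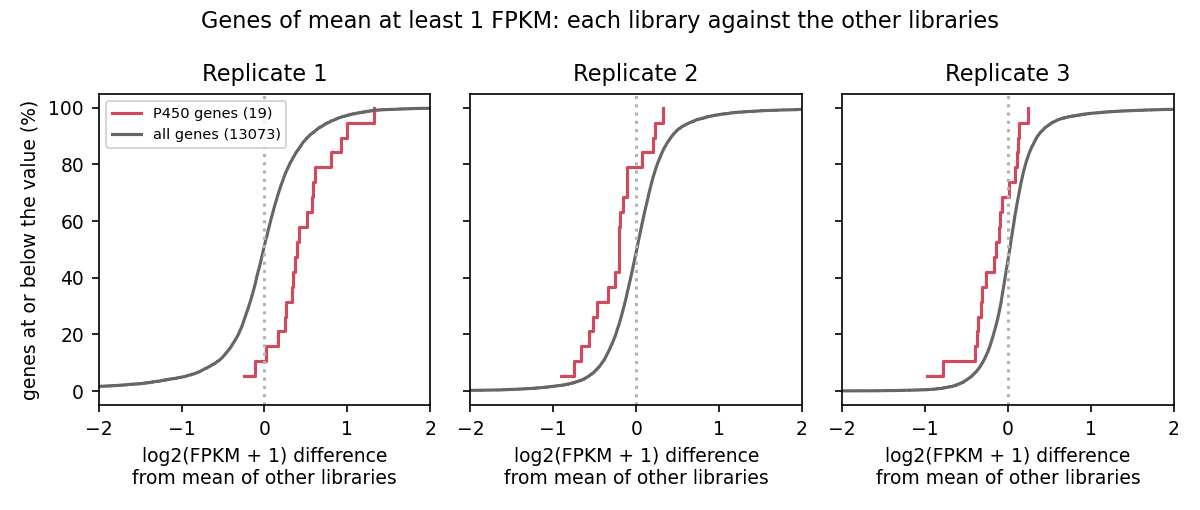
Cumulative share of genes by their log2(FPKM + 1) difference from the mean of the other libraries, for each library, with the 19 P450 genes in red and all 13073 genes that averaged at least 1 FPKM in grey; values beyond 2 on either side are outside the axis. In replicate 1 the red line lies to the right of the grey one, with medians of 0.39 and -0.01, and in the other libraries to its left.

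Markers of several cell types also differed between libraries. The 8 genes of clear and narrow cells summed to 208, 124 and 117 FPKM in replicates 1, 2 and 3. Of the 6 that averaged at least 1 FPKM, 4 were at least 2-fold above both others in replicate 1 (background 1.29%). The other 2, Atp6v0d2 (25.9, 41.1 and 29.5 FPKM) and Car2 (9.09, 11.0 and 11.6 FPKM), were lowest there. Among 6 smooth muscle genes, 5 were highest in replicate 1, such as Acta2 at 306, 193 and 178 FPKM, while Actg2 was lowest there at 49.9, 1341 and 1316 FPKM. Macrophage genes (8) summed to 136, 198 and 212 FPKM and endothelial genes (6) to 16.7, 46.1 and 28.2 FPKM, both sums lowest in replicate 1. Of the macrophage genes, Cd68 alone was highest in replicate 1, at 19.2, 15.7 and 13.3 FPKM. Basal cell genes (6) summed to 186, 166 and 186 FPKM, but Cldn1 (12.0, 28.6 and 27.3 FPKM) and Itga6 (4.48, 11.6 and 10.2 FPKM) were at least 2-fold below both others in replicate 1, and Krt5 (84.8, 48.8 and 52.9 FPKM) was highest there. Over the 6 basal cell genes the median difference of replicate 1 from the others was -0.51 on the log2(FPKM + 1) scale. The adipocyte genes (6) summed to at most 1.30 FPKM in any library. The part of these cell types in the P450 values was not tested. In whole tissue, fewer cells of a type and less RNA per cell cannot be told apart.

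The electron suppliers of P450 enzymes were read throughout. All 12 listed redox partner genes in the table had a mean of at least 1 FPKM. Pgrmc1, a haem-binding membrane protein that interacts with P450 enzymes, was highest at 589, 606 and 746 FPKM, and Fdxr, the mitochondrial ferredoxin reductase gene, lowest at 4.93, 3.43 and 4.09 FPKM. Por, the reductase that feeds the enzymes of the endoplasmic reticulum, stood at 40.1, 51.3 and 50.5 FPKM, lowest in replicate 1. Its FPKM exceeded that of every P450 gene in each library. The cytochrome b5 gene Cyb5a stood at 223, 201 and 261 FPKM. Cyb5r2, a cytochrome b5 reductase gene, stood at 1.55, 9.01 and 8.31 FPKM and was the 1 partner gene at least 2-fold below both others in replicate 1. Of the 12 genes, 4 were highest in replicate 1, and the median difference of replicate 1 from the others was -0.06 on the log2(FPKM + 1) scale, which turned to 0.03 with equal library totals and to 0.03 without replicate 3.

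**Figure D5:**
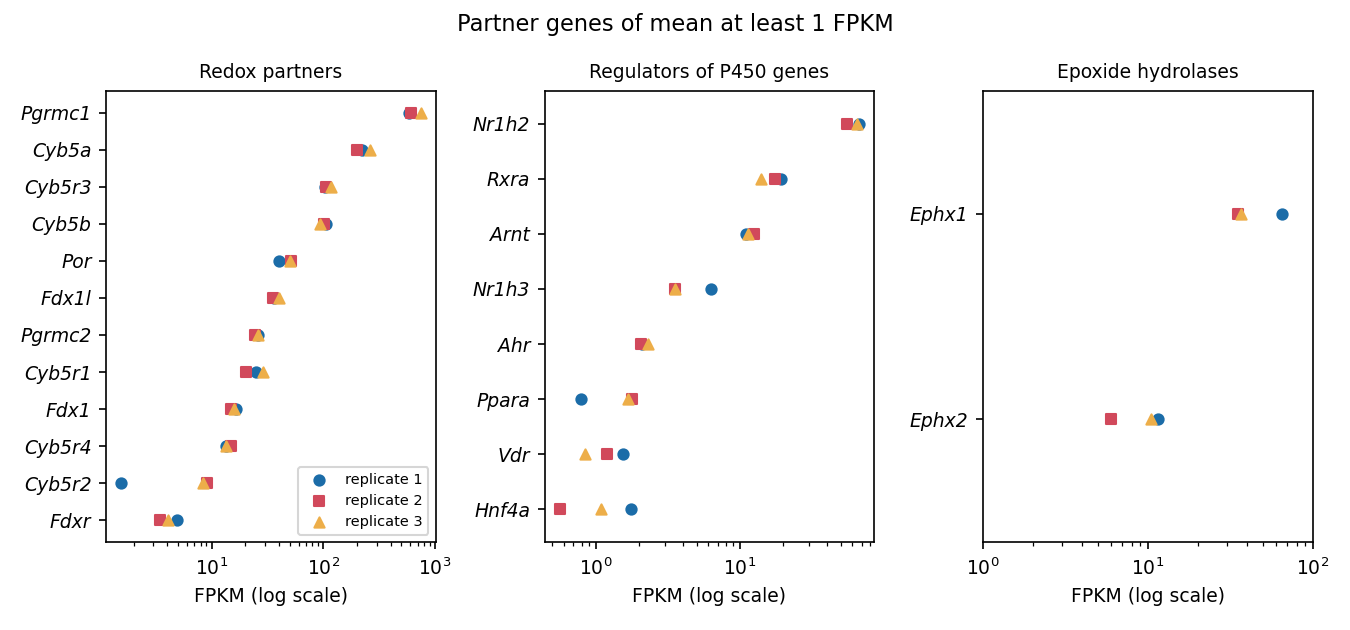
FPKM on log axes of partner genes that averaged at least 1 FPKM, with libraries as points. Por and Cyb5r2 have replicate 1 as their leftmost point, and Nr1h3, Ephx1 and Ephx2 have it as their rightmost.

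Haem synthesis and breakdown genes were all read, with a mean of at least 1 FPKM for 13 of 13. Urod, a decarboxylase of the haem pathway, stood at 157, 154 and 162 FPKM, and Alas1, its rate-limiting enzyme outside red cells, at 26.2, 20.6 and 21.3 FPKM. Alas2, the red cell form, was lowest at 0.962, 0.541 and 2.27 FPKM. In this list 5 of 13 genes were highest in replicate 1, none lay 2-fold apart from both other libraries in any library, and the median difference of replicate 1 was -0.01, which turned to 0.0095 with median-of-ratios scaling and to 0.09 with equal totals. Of 13 regulator genes, 8 had a mean of at least 1 FPKM and 5 of these were highest in replicate 1, with a median difference of 0.23. Nr1h2 was the highest of them. Hnf4a, a regulator of liver and kidney genes, was the lowest at 1.75, 0.562 and 1.09 FPKM, and Nr5a1, the steroidogenic factor gene, was listed at 0.

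Of the 4 epoxide hydrolase genes, whose enzymes open the epoxides that P450 enzymes form, 2 averaged at least 1 FPKM, and both were highest in replicate 1. Ephx1, the microsomal form, stood at 65.2, 35.4 and 36.7 FPKM in replicates 1, 2 and 3, a mean of 45.7 ± 16.8 FPKM (SD, n = 3). Ephx2, the soluble form that acts on fatty acid epoxides, stood at 11.5, 6.01 and 10.4 FPKM. Neither lay 2-fold apart from both other libraries. The other 2 genes of the list, Ephx3 and Ephx4, averaged 0.755 and 0.237 FPKM. These lists were described by counts and medians, and none was tested.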

How the data were processed

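RNA-seq was measured in 3 libraries of initial segment and caput epididymis labelled Ovch2-/-. TRIzol RNA went into a stranded, poly(A)-selecting TruSeq preparation, per the labels' protocols. The deposited values are FPKM, which the file headers call normalized, made by the authors with TopHat2 2.1.1 and Cufflinks 2.2.1 on mm10, per the submitters' processing notes. Not given in the sources used here: the annotation, strand setting, filters and kind of normalization.

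Columns were assigned to samples by name. Values were used as deposited or as log2(FPKM + 1). FPKM values are not counts, so no count model was used, and with 1 group no group test was made. Precision was judged from the spread over libraries, and no counting interval could be computed. A gene was called apart in a library when at least 2-fold below or above both others on that scale, among genes that averaged at least 1 FPKM, and the same share of all genes served as background. The calls were tried on simulated data, with changes placed only in genes of higher mean than any P450 gene here. That trial does not show whether changes at the levels of the P450 genes would be recovered. Gene IDs were matched to RefSeq GRCm38.p6, the mm10 build, for all 101 P450 genes and 24260 of 24346 genes in all. GENCODE M21 gave the strand, overlaps and transcripts for 100 of them. Coordinates are 1-based. Clusters joined genes within 500 kb.

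The members, lists and tests were chosen with earlier results of these data known. Named genes were the P450 genes that reached 1 FPKM in a library, and of each partner list the highest and lowest genes of at least 1 FPKM and those apart. Other genes, the choice of 4 promoters and the count of genes highest in a library were chosen after values were seen. Protein sequences were planned and not used here, so promoters were shown and copies compared by transcript windows. Alternatives were leaving out each replicate, a pseudocount of 0.1, other minimum means, median-of-ratios scaling and equal totals. Python 3.11.15, numpy 2.4.6, pandas 2.3.3 and matplotlib 3.10.9 were used.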

Additional observations from a re-analysis of the deposited data

How the results depend on the processing

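Levels below about 1 FPKM rest on few fragments, and depth was only estimated, in relative terms. No paired analysis was possible because the labels give 1 group. P450 genes averaging at least 1 FPKM numbered 19, 27 at a minimum of 0.5 FPKM, 8 at a minimum of 5 FPKM, 16 when 1 FPKM was required in every library, and 20 without any one replicate. Those highest in replicate 1 numbered 15 of 19 as reported, 15 with median-of-ratios scaling and 16 with equal totals, where none was highest in replicate 3. At a minimum of 5 FPKM 6 of 8 were highest in replicate 1, 2 in replicate 2 and 0 in replicate 3. With no minimum, 32, 9 and 8 were highest in replicates 1, 2 and 3, and the median difference was 0 in replicates 1 and 2, since most genes were at 0. Without one of the other replicates, 16 and 17 were highest in replicate 1. Without replicate 1, 11 of 20 were highest in replicate 2 and 9 in replicate 3, against 4 in replicate 3 without replicate 2. Of all 24346 genes, 9226 averaged at least 5 FPKM. At least 1 FPKM was averaged by 13081, 13043 and 13029 genes without replicates 1, 2 and 3. For the other alternative counts the share of all genes was not computed, so no background stands beside them.

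The genes 2-fold above the other libraries in replicate 1 were 1 as reported, 0 at a minimum of 5 FPKM, which removes Cyp1a1, 2 without replicate 2 (287 of 13043 over all genes) and 3 without replicate 3 (464 of 13029). Those 2-fold below in replicate 2 were 0 as reported, 2 with a pseudocount of 0.1, Cyp2b23 and Cyp2e1 (172 of 13073 over all genes), and 3 without replicate 3 (464 of 13029). Those below in replicate 3 were 2 without replicate 2 (287 of 13043). With a single other library to be apart from, more genes can be called. The median difference of replicate 1 lay between 0.35 and 0.47 when a replicate was left out and was 0.48 with a pseudocount of 0.1. That of replicate 2 was 0.068 without replicate 1 and -0.47 without replicate 3, and that of replicate 3 was -0.068 without replicate 1 and -0.35 without replicate 2. The redox partner median of replicate 3 was 0.011 with equal totals, and the regulator median of replicate 3 was -0.23 without replicate 2 and -0.052 without replicate 1; the cause was not tested.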
